A study of Mus musculus with 8 samples.

Results

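The insulin signalling genes described here are 9 named genes of the hepatic insulin response: Insr, Irs1, Irs2, Pik3r1, Akt1, Akt2, Foxo1, Foxo3 and Trib1. They are 9 of 21755 protein-coding genes on chromosomes 1 to 19 and X, and were taken by name. No measured value enters the rule, but the genes were named with earlier results of these data known. Chromatin accessibility was measured by ATAC-seq, in which a transposase inserts sequencing adapters wherever DNA is accessible, in liver nuclei of adult C57BL/6 mice. The 2 groups were control mice (4 libraries) and Alb-D2KO mice (4 libraries), with 50000 nuclei in each library and no treatment named in the labels. In Alb-D2KO mice, a floxed Dio2 gene, which encodes the type 2 deiodinase that activates thyroxine, is inactivated by a Cre recombinase under the albumin promoter, which is active in hepatocytes. The titles of the control libraries call them cre, and the labels give their genotype as control. Liver cells in which the albumin promoter is inactive are part of both groups.

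Regions were called on grouped libraries, and only those without an overlap in the other genotype were listed. These are 8031 regions accessible in control liver alone (RCAs, for reduced chromatin accessibility) and 250 regions found only in Alb-D2KO liver. The lists hold no value per library, so there was no replicate error, no interval over animals and no test of any difference given below, and the depth of the libraries is unknown. An RCA is a region lost from the call, and a region that both genotypes share may still differ in height. In whole liver, fewer cells of a type and less accessibility per cell cannot be told apart. Of markers of liver cell types, 6 of 8 hepatocyte genes had an RCA within 10 kb, against 0 of 6 Kupffer cell, 2 of 5 endothelial, 0 of 5 stellate, 1 of 4 cholangiocyte and 0 of 4 lymphocyte genes, and none of these 32 genes had a region found only in Alb-D2KO liver. Over all protein-coding genes, 25.3% had an RCA and 1.02% a region found only in Alb-D2KO liver within 10 kb. Counts of 0 in groups this small are therefore near the background. The part of a shift in cell types in the results was not tested. At Dio2 itself, neither list held a region within 10 kb.

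Insulin binds its receptor at the cell surface, the receptor phosphorylates the insulin receptor substrates, and these recruit phosphoinositide 3-kinase, whose lipid product activates the AKT kinases. In hepatocytes, AKT phosphorylates the FOXO transcription factors, which then leave the nucleus, so that genes of glucose production such as G6pc and Pck1 are no longer driven by them. AKT signalling also promotes glycogen and lipid synthesis.

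RCAs lay within 10 kb of 7 of the 9 genes and numbered 14. The genes without one were Irs2 and Akt2. Over all protein-coding genes, 5497 of 21755 (25.3%) had at least 1 RCA within the same distance. No region found only in Alb-D2KO liver lay within 10 kb of any of the 9 genes, nor within 50 kb, and over all protein-coding genes only 222 (1.02%) had one within 10 kb, so that a count of 0 among 9 genes is near the background. The 9 genes were long, with a median body of 58.3 kb against 17.4 kb for all protein-coding genes, and 8 of the 9 were longer than that median. A longer body gathers more regions, so counts are set below beside those of genes of similar length.

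The sequence at the strongest RCA of each of the 7 genes is shown first, because these are the stretches of DNA that were called accessible in control liver and not in Alb-D2KO liver. Each runs 5′ to 3′ in the direction of the gene and was read from the mm10 genome (GRCm38.p6, RefSeq). It covers up to 75 bases on either side of the summit, within the region, except for Akt1, where it is the part of the region upstream of the gene start. Capitals mark exact matches, on either strand, to GTAAACA (forkhead factors, the family of FOXO1 and FOXO3), GGGCGG (SP1 and KLF factors) or CACGTG (E-box, the same on both strands and counted once). No match to AGGTCA (a nuclear receptor half-site) or TTGCNNAA (C/EBP factors), which were also searched, falls in these stretches.
Insr chr8:3215762-3215912 (- strand): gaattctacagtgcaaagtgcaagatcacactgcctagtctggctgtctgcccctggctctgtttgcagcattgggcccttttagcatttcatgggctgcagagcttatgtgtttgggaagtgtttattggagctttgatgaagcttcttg
Irs1 chr1:82247819-82247969 (- strand): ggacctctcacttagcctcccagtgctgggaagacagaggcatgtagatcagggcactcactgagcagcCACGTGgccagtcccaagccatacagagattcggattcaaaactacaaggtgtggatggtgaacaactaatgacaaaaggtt
Pik3r1 chr13:101690244-101690358 (- strand): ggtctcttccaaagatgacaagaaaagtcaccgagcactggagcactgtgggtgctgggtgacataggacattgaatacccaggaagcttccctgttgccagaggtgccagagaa
Akt1 chr12:112674885-112675103 (- strand): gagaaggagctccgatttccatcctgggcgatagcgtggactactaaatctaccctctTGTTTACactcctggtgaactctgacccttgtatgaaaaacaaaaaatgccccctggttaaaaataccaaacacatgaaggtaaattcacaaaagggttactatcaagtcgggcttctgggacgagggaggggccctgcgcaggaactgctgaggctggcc
Foxo1 chr3:52267940-52268090 (+ strand): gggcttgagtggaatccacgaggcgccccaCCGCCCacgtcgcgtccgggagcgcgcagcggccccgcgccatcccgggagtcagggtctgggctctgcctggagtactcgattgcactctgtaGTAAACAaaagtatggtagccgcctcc
Foxo3 chr10:42225674-42225824 (- strand): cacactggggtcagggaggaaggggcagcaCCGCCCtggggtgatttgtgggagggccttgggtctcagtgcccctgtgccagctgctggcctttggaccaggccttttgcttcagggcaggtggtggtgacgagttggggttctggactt
Trib1 chr15:59653946-59654096 (+ strand): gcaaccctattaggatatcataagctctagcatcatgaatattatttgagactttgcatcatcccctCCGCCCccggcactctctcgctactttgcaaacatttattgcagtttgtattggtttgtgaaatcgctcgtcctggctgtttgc

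The forkhead matches shown are those upstream of Akt1 and Foxo1, which encode a kinase that phosphorylates FOXO proteins and a FOXO protein. Over their whole length, 4 of the 14 RCAs (28.6%) held GTAAACA, against 7.63% of the 8021 RCAs on assembled chromosomes, whose sequence was read, and 9.17% of RCAs of 80% to 125% of the width. These 4 were the RCA of Insr nearer to the gene start, the promoter RCA of Akt1 and both RCAs of Foxo1. TTGCNNAA was found in 6 of 14 (42.9%), against 20.9% of all and 23.2% of RCAs of similar width. The other motifs were about as frequent as in RCAs of similar width, with AGGTCA in 5 (35.7% against 39.7%), GGGCGG in 4 (28.6% against 26.3%) and CACGTG in 1 (7.14% against 11.6%). In 3 of the 14 (21.4%), both RCAs of Pik3r1 and the stronger of Insr, no motif was found, against 34.2% of all RCAs. A match says only that these letters are present, and no binding was measured.

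Insr encodes the insulin receptor and spans 157.6 kb of chromosome 8 (chr8:3122061-3279617, minus strand, mm10). Its 2 RCAs lay in intron 2 of 20, at chr8:3215543-3216014 and chr8:3256557-3256848, with summits 63.8 and 22.9 kb downstream of the gene start. The strength of a region is given as the area that the caller wrote for its −log10 p curve (AUC), which grows with both width and height. The RCA farther from the start had an AUC of 438, above that of 89.0% of all RCAs, and the nearer one an AUC of 313, above 63.9%. No RCA touched the promoter of the receptor gene.

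Irs1 and Irs2 encode the adaptors that the receptor phosphorylates, of which both act in hepatocytes. Irs1 (chr1:82233101-82291416, minus strand) had 1 RCA in its single intron, at chr1:82247574-82248051, 43.5 kb from the start. With an AUC of 228 it was among the weak ones, above 22.1% of all RCAs, and it held the only E-box matches of the set. Irs2 (chr8:10984681-11008458, minus strand) had none within 10 kb, but its nearest RCA missed that limit narrowly, at 10208 bp beyond the 3′ end of the gene (chr8:10974172-10974473, AUC 427). The RCA just inside the limit was the downstream RCA of Trib1, 8405 bp beyond the gene end. Within 50 kb Irs2 had 3 RCAs, the other two being 18795 bp beyond its 3′ end in an exon of the non-coding gene Gm44956 (AUC 443) and 12801 bp upstream of its start in an intron of 9530052E02Rik (AUC 368). All 3 were stronger than the RCA of Irs1. An RCA at this wider distance was common, since 44.6% of all protein-coding genes had at least 1 within 50 kb.

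Pik3r1 encodes the regulatory subunit of phosphoinositide 3-kinase that binds the phosphorylated adaptors. Its 2 RCAs (chr13:101690244-101690464 and chr13:101698055-101698277) were the narrowest of the 14, at 221 and 223 bp, and the weakest, with an AUC of 217 each, above 14.2% and 14.1% of all RCAs. They lay 77.9 and 70.0 kb from the start of the gene (chr13:101680563-101768217, minus strand), in introns 8 and 7 of 15 of the longest transcript. Shorter transcripts of Pik3r1 start nearby, so that the first was 1879 bp from the start of a retained-intron transcript, in whose exon it falls, and the second 3455 bp from the start of a short coding transcript.

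Akt1 and Akt2 encode the kinases that carry the signal to FOXO proteins, glycogen synthesis and MTOR, and Akt2 is the form most closely tied to insulin action in liver. The RCA of Akt1 (chr12:112674361-112675103) was the only one of the 14 in a promoter, defined as sequence within 200 bp of an annotated start site. Over all protein-coding genes, 1303 (5.99%) had an RCA at one of their own promoters. The region covered the outermost start of Akt1 (chr12:112653821-112674884, minus strand), with its summit 481 bp inside the gene. At 743 bp it was the widest of the 14 and wider than 96.8% of all RCAs, yet its AUC of 240 was above only 29.6% of all RCAs and 21.5% of promoter RCAs. The nearest start of another coding gene, Zbtb42, was 3725 bp away. Within 50 kb Akt1 had 3 RCAs in all. Of those outside the 10 kb limit, one lay 32024 bp upstream of its start (chr12:112706908-112707305, AUC 472). The other lay 47803 bp beyond its 3′ end in an exon of Inf2 (AUC 278). Akt2 (chr7:27591552-27640826, plus strand) had no RCA, and the nearest was 82.7 kb from the gene.

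Foxo1 and Foxo3 encode the transcription factors that AKT holds out of the nucleus. Foxo1 (chr3:52268336-52353221, plus strand) had the strongest RCA of the set, at chr3:52267594-52268097, with an AUC of 455, above 90.9% of all RCAs. It ended 239 bp upstream of the annotated start, just outside the 200 bp that define a promoter, and therefore counts as intergenic. It was also the richest in G and C, at 63.5% of bases, with a ratio of observed to expected CpG of 0.892, against medians of 60.0% and 0.624 for promoter RCAs and 50.5% and 0.230 for intronic ones. The other RCA of Foxo1, in intron 1 of 2 (chr3:52290652-52291324, AUC 342), was 673 bp wide, and 52.9% of it was annotated repeat. Foxo1 was also the member closest to a region found only in Alb-D2KO liver, at 71.7 kb, whereas for the other members that distance ran from 905 to 16279 kb.

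Foxo3 (chr10:42181841-42276755, minus strand) had 4 RCAs, more than any other member, all in intron 2 of 3. From the start of the gene inwards they were chr10:42270752-42271070 (AUC 290), chr10:42230596-42231201 (AUC 269), chr10:42225360-42225873 (AUC 414) and chr10:42202621-42203071 (AUC 265), with summits 5.84, 45.8, 51.0 and 74.0 kb from the start. The third was above 86.4% of all RCAs, while the other 3 lay close to the median of all RCAs, 278. None was near an annotated start of Foxo3, the closest being 5626 bp away. Of protein-coding genes 80% to 125% as long, 3.37% had as many RCAs or more.

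Trib1 encodes a pseudokinase that brings C/EBPα to degradation and is known for its part in hepatic lipid metabolism. It is the shortest of the 9 genes, at 8.75 kb (chr15:59648350-59657099, plus strand), and had 2 RCAs, one in intron 2 of 2 (chr15:59653821-59654201, AUC 384) and one 8405 bp beyond its 3′ end (chr15:59665504-59665888, AUC 350). They had larger areas than 81.7% and 74.8% of all RCAs. The intronic RCA held 2 C/EBP matches. Between 10 and 50 kb there were 2 more RCAs, 23272 bp downstream (AUC 632) and 43779 bp upstream (AUC 203).

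**Figure D1:**
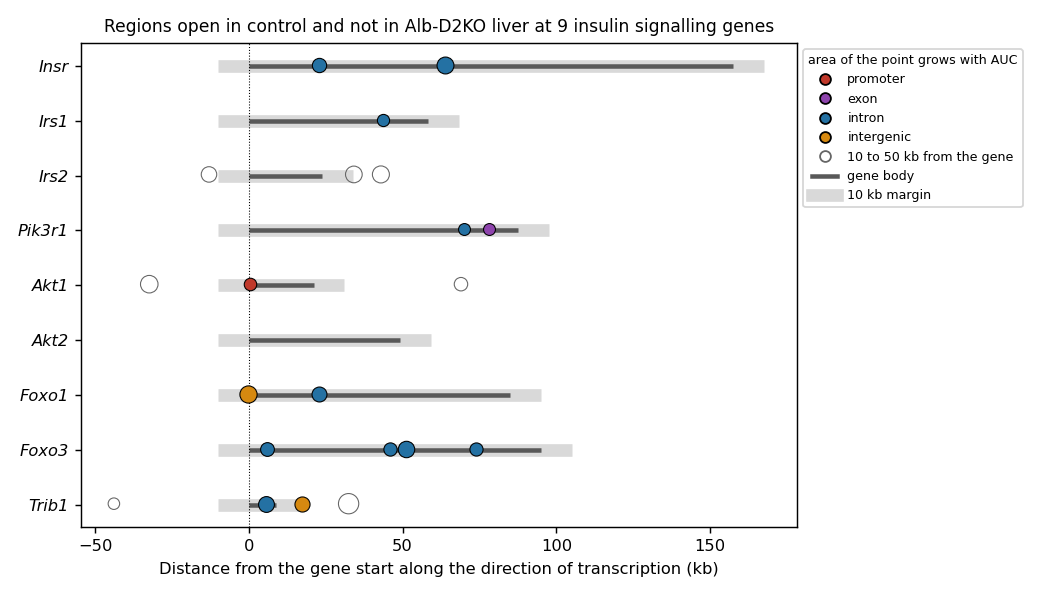
Position of each RCA by its summit, in kb from the gene start along the direction of transcription, for the 9 genes, with the gene body as a dark bar, the 10 kb margin in gray, the class as color and the AUC as the area of the point. Akt1 and Foxo1 are the only genes with an RCA at their start, the 4 RCAs of Foxo3 are spread over its body, Irs2 has 3 RCAs only outside its margin, and Akt2 has none.

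The 14 RCAs were mostly intronic and far from gene starts. By class, 10 were in introns (71.4%, against 40.0% of all RCAs), 2 intergenic (14.3% against 30.3%), 1 exonic (7.14% against 10.2%) and 1 in a promoter (7.14% against 19.4%). Since 12 of the 14 lie over a gene body, and the rule looks only at bodies and their 10 kb margins, a low intergenic and a high intronic share follow in part from the rule. The shares are set beside all RCAs and not beside RCAs at genes of similar length. How far the intronic share and the distances to the start follow from the length of the 9 genes was not tested. Only 2 had a summit within 1 kb of the start of the gene, those of Akt1 and Foxo1, and 9 lay more than 20 kb from it. The median width was 461.5 bp, against 326 bp for all RCAs, and 10 of 14 were wider than that. The AUC ranged from 217 to 455 with a median of 302 (quartiles 246 and 376), against 278 (quartiles 232 and 351) for all 8031 RCAs, and 8 of the 14 were above the median of all. Among intronic RCAs alone the medians were 302 and 271. The −log10 q at the summit, a measure of height that does not grow with width, had a median of 2.98, against 3.14 for all RCAs.

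**Figure D2:**
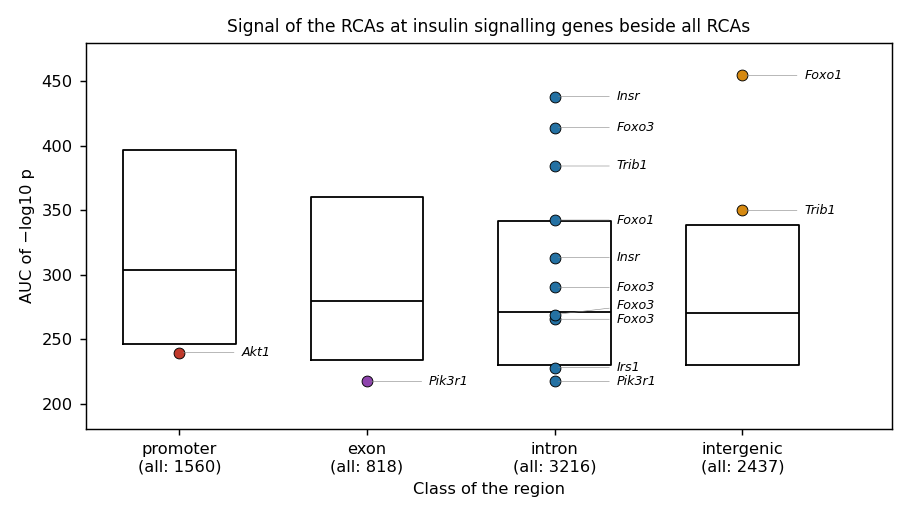
AUC of −log10 p of the 14 RCAs at the 9 genes (points, by class) beside the quartiles and median of all RCAs of the class (boxes). Points for Foxo1, Insr, Foxo3 and Trib1 lie highest, between 384 and 455, and those of Akt1, Irs1 and Pik3r1 lie lowest, at 240 or less.

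Beside protein-coding genes 80% to 125% as long (822 to 2674 genes for each member), the 7 genes with an RCA all had more than the mean, and Irs2 and Akt2 had fewer. Since the means ran from 0.308 to 0.746, this only restates which genes had an RCA. The genes of similar length held a mean of 0.746 RCAs for Insr, which had 2, 0.636 for Foxo3, which had 4, and 0.308 for Trib1, which had 2. For Pik3r1 and Foxo1, with 2 each, the means were 0.609 and 0.601. For Irs1 and Akt1, with 1 each, they were 0.539 and 0.385, and a single RCA was no rarity at that length, since 31.7% and 26.5% of similar genes had at least 1. Summed over the 9 genes, the means came to 4.71 RCAs, against 14 observed, and the shares of similar genes with an RCA came to 2.73 genes, against 7. For promoters the same sum was 0.682 genes, against 1. Per length, the bodies of the 9 genes with their margins held 18.3 RCAs per Mb, against 4.99 per Mb over those of all protein-coding genes. Whether the genes of similar length are expressed in liver, or accessible at all in control liver, was not tested, so these figures describe the 9 genes beside a typical coding gene and not beside a typical liver gene.

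**Figure D3:**
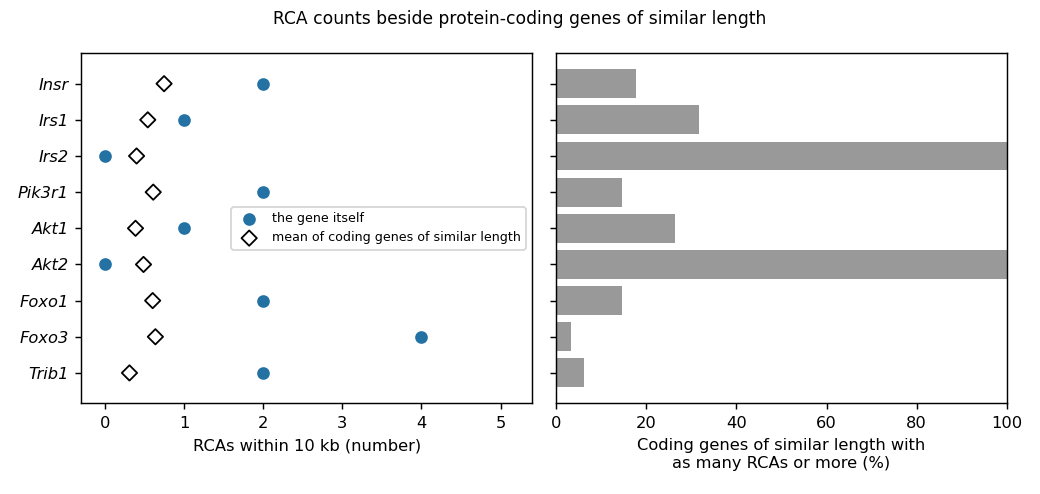
Number of RCAs within 10 kb of each of the 9 genes (points) and the mean over protein-coding genes 80% to 125% as long (diamonds) on the left, and the percentage of those genes with as many RCAs or more on the right. The percentage is lowest for Foxo3 (3.37%) and Trib1 (6.27%), between 14.6% and 31.7% for Insr, Irs1, Pik3r1, Akt1 and Foxo1, and by definition 100% for Irs2 and Akt2, which have none.

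The number that the caller gave each region shows how many control regions around the genes were kept. These numbers rise along each chromosome and reach 22367 in the control call, and a number missing from the list was read as a control region that overlapped one of Alb-D2KO liver. Between the nearest RCAs on either side, the stretch of 1263 kb around Foxo3 held 19 control regions, of which 4 were lost. That of 534 kb around Foxo1 held 11 with 2 lost, and that of 2110 kb around Irs1 held 9 with 1 lost. Stretches this long can hold regions of other genes. Akt2 and Irs2 have no RCA, so every control region in their stretches is a kept one by definition. The stretch of 352 kb around Akt2 held 8 control regions, and that of 46.8 kb around Irs2 held 3. Around Akt1 6 of 7 were kept, around Trib1 4 of 6, around Pik3r1 2 of 4, and around Insr, whose stretch has no RCA on its left to bound it, at least 3 of 5. In all, at least 58 of 72 were kept, a share that cannot be set beside the 35.9% of control regions lost over the genome, because the RCAs that bound each stretch are not counted. The positions of the kept regions are not in the lists, so which of them lie in the genes is unknown.

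Within a gene, lost regions followed each other without a kept one between them at Pik3r1 and at Trib1, whose 2 RCAs have consecutive numbers. At Foxo3, 4 of the 5 control regions from the first RCA to the last, over 68.5 kb, were lost and 1 was kept. There was 1 kept control region between the RCAs of Insr and 2 between those of Foxo1. Of the 7 pairs of neighboring RCAs in these genes, 3 of them at Foxo3, 4 (57.1%) had consecutive numbers. Over the genome 3362 of 8002 pairs (42.0%) did, but those pairs lie at any distance on a chromosome. The pairs in these genes lie within 1 gene and its margins, so the shares are not directly comparable.

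Among 60 other genes of the pathway, 24 (40.0%) had an RCA within 10 kb, with 48 RCAs in all. Over genes of similar length, the shares with an RCA summed to 17.8 genes and the means to 31.4 RCAs. Inhibitors of the pathway had the most, at 9 of 15 genes, where 18.4% to 37.3% of genes of similar length had an RCA. None of 5 other phosphoinositide 3-kinase genes had one. For these the share in genes of similar length was 20.6% to 34.9%, so that 0 of 5 is near the background. The remaining groups were adaptors (3 of 7), outputs of AKT and insulin (3 of 6), kinases beside AKT (5 of 13), FOXO family members and targets (3 of 10) and ligands and receptors (1 of 4).

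Genes of the list with a promoter RCA included G6pc, which encodes the catalytic subunit of glucose-6-phosphatase and is a FOXO1 target (chr11:101367374-101367834, AUC 577), Deptor, an inhibitor within the MTOR complexes (chr15:55132946-55133528, AUC 613), and Inppl1, a lipid phosphatase that acts on the product of phosphoinositide 3-kinase (chr7:101836415-101837153, AUC 485). The promoter RCAs of Deptor and Inppl1 lay at start sites inside the gene, with summits 20.96 and 1.20 kb from the gene start, and that of G6pc lay at the gene start. At Sos1, which encodes an exchange factor that activates RAS and is counted here with the adaptors, the promoter RCA was weaker, with an AUC of 247, and lay 139 bp from a start site within the gene, with its summit 0.873 kb from the gene start. Ranked by the strongest RCA of each gene, the first 5 genes of the list were Deptor, G6pc, Ptpn1, Phlpp1 and Inppl1. Ptpn1 encodes a phosphatase of the insulin receptor, and its RCA (chr2:167982701-167983267, AUC 557) lay beyond its 3′ end in an exon of Ripor3. Phlpp1 encodes a phosphatase of AKT and had an intronic RCA with an AUC of 517, 21.6 kb from its start. The strongest area of each of these 5 genes was larger than that of any RCA within 10 kb of the 9 genes. These 5 were picked by area from 60 genes with 48 RCAs, against 14 RCAs at the 9 genes. The comparison therefore shows no difference between the 2 lists.

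**Figure D4:**
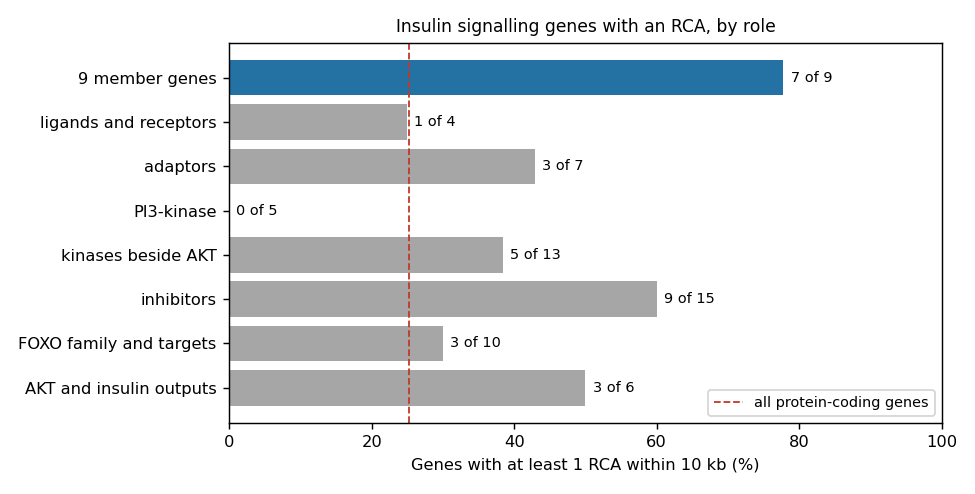
Percentage of genes with at least 1 RCA within 10 kb, for the 9 genes (top bar) and for 60 other genes of the pathway by role, with the share of all protein-coding genes, 25.3%, as a dashed line. The 9 genes and the inhibitors have the longest bars, and the other phosphoinositide 3-kinase genes have none.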

How the data were processed

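ATAC-seq libraries of liver nuclei (4 control, 4 Alb-D2KO) were aligned by the authors to mm10 with BWA (0.7.17), checked with FastQC and Picard, filtered, and called with Genrich (0.6) on grouped libraries, leaving out blacklisted regions. Overlaps between genotypes were then subtracted. The signal deposited for each region is an area (AUC) of −log10 p, and the deposited score, not used for any result, is that signal per bp times 1000 with a ceiling. Of the values at the summit, only the deposited −log10 q was used. Since calls were pooled, no test was possible and the depth, and with it the precision, is unknown.

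Regions were assigned with Python (3.11.15), pandas (2.3.3) and numpy (2.4.6) to GENCODE M21 (not the release of the study) in the order promoter, exon, intron, intergenic, and counted within 10 kb of gene bodies. An overlap of 1 bp sufficed. The counting was tested on simulated data. Named were the 9 genes with every region within 10 kb, pathway genes with a promoter RCA, the 5 with the highest area, and Dio2, and some results of this rule are not reported here. The genes and lists were chosen with earlier results of these data known. Alternatives were other distances, areas, q limits, promoter windows and length bands, merging of regions, the region midpoint, the highest area per gene and RefSeq gene bodies.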

Additional observations from a re-analysis of the deposited data

How the results depend on the processing

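Of 23 alternatives, 15 stayed within 1.5 times the reported value and 8 did not. An AUC of at least 300 left 7 RCAs at 4 genes (Insr, Foxo1, Foxo3 and Trib1), 0 genes with a promoter RCA, and a sum of mean counts in genes of similar length of 1.93, with an RCA near 13.0% of all coding genes. A q of at most 0.001 also left 7 RCAs at the same 4 genes (19.8% of all coding genes). A promoter window of 1000 bp gave 2 genes (Akt1 and Foxo1, 9.19% of all coding genes) and one of 3000 bp gave 3 (with Pik3r1, 12.7%). Regions found only in Alb-D2KO liver numbered 0 within 10 kb, within 50 kb and at an AUC of at least 300. RefSeq gene bodies, an alternative chosen after seeing the data, gave 14 RCAs at 7 genes as before. No paired analysis was possible because the libraries were pooled in the call, and for the same reason no replicate could be left out. What the unknown depth limits was not tested.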
